A study of Homo sapiens with 6 samples.

Results

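The 39 genes described here are the glycolysis and hypoxia-induced metabolic genes of the breast cancer cell line MDA-MB-231. They were taken from 61552 gene identifiers in the count tables by name and function, a rule that uses no measured value, although earlier results of these data were known when it was written. The group holds 23 genes of glucose uptake, glycolysis and lactate handling, and 16 genes of pyruvate entry into mitochondria, mitophagy, carbonic anhydrases, collagen prolyl hydroxylases and other targets of hypoxia-inducible factor (HIF). All 39 were found by symbol, and 38 passed the expression filter and were tested.

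MDA-MB-231 is an adherent, triple-negative breast cancer line. Cells were given 10 μM VNLG-152R, a small molecule described by the study as a degrader of the kinases MNK1 and MNK2, or dimethyl sulfoxide (DMSO) as vehicle control, each for 24 h and each with 3 libraries. All 6 libraries come from this 1 line, and no label gives an oxygen level or a hypoxic arm, so the comparison concerns the levels of these genes under standard culture. The controls held 60122936 to 68583224 gene counts and the VNLG-152R libraries 69923839 to 82151816, so every VNLG-152R library was deeper than every control. Of 8 markers typical of the line, VIM was measured at 4911 to 5166 CPM (counts scaled to the depth of the library) in controls and CD44, AXL and MSN also lay above 600 CPM. By edgeR, 2 of these 8 fell with VNLG-152R: CAV1 (log2 fold change -0.60, adjusted p = 0.0048, called with each library left out in turn) and VIM (-0.39, adjusted p = 0.0472, called when VNLG-152R replicate 1 was left out but not when any other library was). The 8 together took 0.974%, 1.03% and 0.999% of gene counts in the control libraries and 0.948%, 0.795% and 0.883% in the treated ones, without overlap, and the part of this in the results for the members was not tested. The estrogen receptor ESR1, PGR, CDH1 and ESRP1 stayed under 1 CPM in all 6 libraries, whereas KRT19 was at 664 to 811 CPM, although it had been listed as low or absent. The summed level of 7 blood cell markers was 3.26 to 5.01 CPM, and that of 8 stromal and endothelial markers was 41.1 to 45.8 CPM, mostly PECAM1 and COL1A1.

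Glycolysis splits glucose into pyruvate. Transporters bring glucose in, hexokinases trap it, phosphofructokinases set the pace, and the steps from GAPDH onward return ATP and NADH. Many tumor cells send pyruvate to lactate even when oxygen is plentiful, and lactate leaves the cell through monocarboxylate transporters. When oxygen is low, or when growth signals raise its synthesis, the transcription factor HIF-1 binds hypoxia response elements with the core ACGTG or GCGTG and raises transporters, nearly every glycolytic enzyme, the pyruvate dehydrogenase kinases that close pyruvate's way into mitochondria, and genes of mitophagy, pH control and collagen hydroxylation.

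With VNLG-152R, 8 of the 38 tested genes changed, in both directions and by less than 2-fold. The transcriptional repressor BHLHE40, the aldolase ALDOC and the glucose transporter SLC2A3 rose. The mitophagy receptor BNIP3, the vasodilator peptide precursor ADM, lactate dehydrogenase LDHA and the glycolytic enzymes TPI1 and PGAM1 fell. The other 30 did not pass an adjusted p under 0.05 in edgeR's quasi-likelihood test, which gives all adjusted p-values below unless another tool is named. In all, 7.89% of tested members rose and 13.2% fell, beside 3.76% and 1.43% of the 17084 genes tested (5.19% in both directions together). The median log2 fold change (VNLG-152R over control) was -0.08 over members and -0.00 over all tested genes, and 26 of the 38 were negative. All 3 VNLG-152R libraries lay above all 3 controls for 5 members (13.2%, against 15.1% of all tested genes) and below them for 12 (31.6%, against 13.4%). At an unadjusted p under 0.05 there were 17 members (44.7%), against 22.6% of all tested genes.

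**Figure D1:**
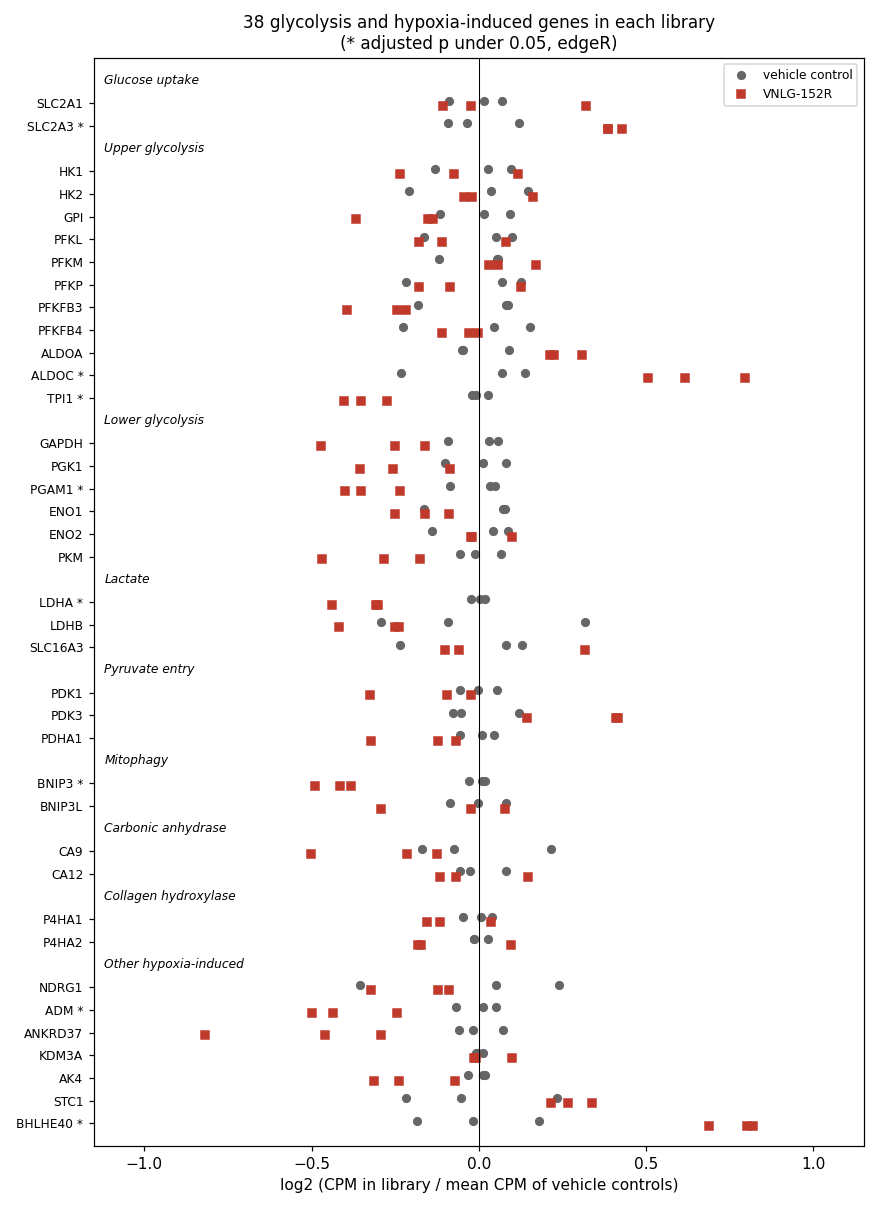
Each row is a gene, and the x axis gives the log2 ratio of CPM in each library to the mean CPM of the vehicle controls (grey circles, controls; red squares, VNLG-152R; 3 libraries each; asterisks mark adjusted p under 0.05). The red squares of BHLHE40, ALDOC and SLC2A3 lie to the right of the grey ones, while BNIP3, ADM, LDHA, TPI1 and PGAM1 lie to the left and most other genes overlap.

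High and low values were not spread evenly over libraries. VNLG-152R replicate 2 held the lowest of the 6 values for 16 of 38 members and the highest for 0. This library also had the largest share of read pairs outside annotated genes, 5.05% against 2.63% to 3.17% in controls and 3.36% and 3.52% in the other VNLG-152R libraries, and the part of this in the results was not tested. Control replicate 1 was lowest for 12 members, and VNLG-152R replicate 1 was highest for 13. When each library was left out in turn, 2 to 4 members rose and 0 to 5 fell. Over all genes in these fits, 1.26% to 3.43% rose and 0.251% to 1.98% fell. Leaving out control replicate 3 left 264 of 17505 genes called overall (1.51%), with BHLHE40 and ALDOC the members among them, and 0 members then fell although 8 were lower at an unadjusted p under 0.05. DESeq2 called 4 members higher and 9 lower, beside 6.37% and 3.73% of its 14391 genes.

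Promoter windows were read from RefSeq (GRCh38.p14), 250 bases before to 50 after each annotated start, and 34 of the 39 members had at least 1. Both forms of the HIF core were searched on both strands, where ACGTG also reads as CACGT and GCGTG as CACGC. The palindrome CACGTG, the E-box that BHLHE40 and other basic helix-loop-helix proteins bind, holds ACGTG on each strand, and each was counted. Of 64 member windows, 40.6% held ACGTG, 45.3% held GCGTG and 71.9% held either, compared with 21.4%, 36.5% and 48.5% of all 35116 windows. CACGTG stood in 17.2% of member windows and 7.26% of all windows. These matches are letters in a window, not measured binding. Windows are not separate units, since HK1 and PFKM have 7 each and some windows of a gene overlap. All windows were not matched to the members in base composition, and many members were chosen as HIF targets. The differences between these shares were not tested. The windows of 4 called genes, 2 that rose and 2 that fell, are shown because each holds several cores, which are in capitals.
BHLHE40, plus strand, chr3:4979187-4979486: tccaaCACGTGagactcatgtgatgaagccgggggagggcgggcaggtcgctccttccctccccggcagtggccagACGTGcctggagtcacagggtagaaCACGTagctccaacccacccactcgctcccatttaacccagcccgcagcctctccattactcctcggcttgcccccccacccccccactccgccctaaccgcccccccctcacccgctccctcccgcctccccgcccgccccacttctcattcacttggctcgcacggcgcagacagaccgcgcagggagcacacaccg
ALDOC, minus strand, chr17:28576846-28577145: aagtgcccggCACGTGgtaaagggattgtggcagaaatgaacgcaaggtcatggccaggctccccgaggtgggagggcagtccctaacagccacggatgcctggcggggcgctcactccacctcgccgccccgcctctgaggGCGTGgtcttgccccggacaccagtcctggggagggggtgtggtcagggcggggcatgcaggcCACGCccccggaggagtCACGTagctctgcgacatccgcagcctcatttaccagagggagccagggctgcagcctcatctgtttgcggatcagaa
LDHA, plus strand, chr11:18394313-18394612: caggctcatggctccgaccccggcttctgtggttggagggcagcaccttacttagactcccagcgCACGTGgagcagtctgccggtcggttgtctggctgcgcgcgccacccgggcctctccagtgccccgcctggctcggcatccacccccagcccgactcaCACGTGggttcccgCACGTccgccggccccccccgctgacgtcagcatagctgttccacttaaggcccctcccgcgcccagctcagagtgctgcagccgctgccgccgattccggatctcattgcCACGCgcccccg
BNIP3, minus strand, chr10:131981874-131982173: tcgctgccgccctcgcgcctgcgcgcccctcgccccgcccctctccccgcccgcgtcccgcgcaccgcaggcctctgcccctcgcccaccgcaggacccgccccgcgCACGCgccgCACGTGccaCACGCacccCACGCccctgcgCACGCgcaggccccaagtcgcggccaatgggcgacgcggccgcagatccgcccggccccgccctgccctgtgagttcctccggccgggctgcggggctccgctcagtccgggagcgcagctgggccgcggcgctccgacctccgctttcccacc

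BHLHE40 and ALDOC, which rose, had 4 and 5 core matches in these windows, and LDHA and BNIP3, which fell, had 6 each. Because these windows were picked for their cores, they cannot show how core number relates to direction, which was not tested. The second window of LDHA held 1 GCGTG. The single window of PGAM1, which fell, held 0 of either core, and that of ADM held 1 GCGTG. The start used for the PGAM1 window lay 1658 bases into the gene from its GENCODE start. The sequence around that GENCODE start was not searched, so the 0 does not show that the PGAM1 promoter lacks cores. TPI1, which also fell, had 0 cores in its first window and 1 ACGTG and 1 GCGTG in its second. SLC2A3 had no window. Genes that were not called also carried cores: the window of PGK1 held 3 ACGTG and 1 GCGTG, and that of PDHA1 held 4 GCGTG.

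The class 1 glucose carriers SLC2A1 and SLC2A3 encode GLUT1 and GLUT3. SLC2A3 (chromosome 12, 7919230 to 7936275, minus strand, GRCh38) was measured at 31.9, 37.0 and 33.3 CPM in controls and at 45.9, 44.6 and 44.6 CPM with VNLG-152R. All 3 treated libraries lay above all controls. The log2 fold change was 0.40 (SE 0.08, adjusted p = 0.0202), but the call was lost when control 1 (adjusted p = 0.0744), control 3 (0.115) or the third VNLG-152R library (0.0635) was dropped. SLC2A1, the main carrier of the line per transcript length, gave 484, 541 and 520 CPM in controls and 644, 478 and 507 CPM with VNLG-152R. Its groups overlapped, with the highest value in VNLG-152R replicate 1, and the log2 fold change of 0.08 did not pass (adjusted p = 0.729).

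In upper glycolysis, from hexokinase to triose phosphate isomerase, 1 of 11 genes rose and 1 fell. ALDOC, the brain-type fructose-bisphosphate aldolase (chromosome 17, 28573115 to 28577264, minus strand), rose from 11.4, 14.7 and 14.0 CPM to 20.5, 19.0 and 23.2 CPM. Every treated library exceeded every control, and the log2 fold change of 0.64 (SE 0.11, adjusted p = 0.00739), a 1.56-fold difference, was called with each of the 6 libraries left out in turn. TPI1, which interconverts the triose phosphates made by aldolase (chromosome 12, 6867119 to 6870948, plus strand), gave 1053, 1026 and 1019 CPM in controls and 854, 781 and 809 CPM with VNLG-152R. The controls were tight, at 1033 ± 18.0 CPM (SD, n = 3), and did not overlap the treated libraries at 815 ± 36.4 CPM. The log2 fold change was -0.34 (SE 0.08, adjusted p = 0.0362), a call that stood without VNLG-152R replicate 1 and was lost when any of the other 5 libraries was left out (adjusted p = 0.072 to 0.14).

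Among members, the rate-setting steps of upper glycolysis showed no called change by edgeR. PFKFB2, a relative of PFKFB3 that is not a member, was called higher and is given below. The hexokinases HK1 (log2 fold change -0.06) and HK2 (0.04) overlapped between groups, as did the phosphofructokinases PFKL (-0.07), PFKM (0.09) and PFKP (-0.04). PFKFB3 and PFKFB4 make and remove fructose 2,6-bisphosphate, the activator of phosphofructokinase. PFKFB3 lay below all controls in all 3 treated libraries, at 171, 206 and 205 CPM in controls and 167, 148 and 164 CPM with VNLG-152R, with a log2 fold change of -0.28 (SE 0.10, adjusted p = 0.105). DESeq2 gave it an adjusted p of 0.0459. PFKFB4 was at -0.05. GPI, which turns glucose 6-phosphate into fructose 6-phosphate, was also below the controls in all treated libraries, at -0.22 (adjusted p = 0.191).

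ALDOA, the aldolase that most tissues express, could not be read as a level. It stood at 3.80, 4.19 and 3.80 CPM in controls and 4.86, 4.55 and 4.59 CPM with VNLG-152R (log2 fold change 0.25, adjusted p = 0.238). In GENCODE 29, 68.3% of its principal exons lie under the readthrough gene AC093512.2 on the same strand, where HTSeq in its default mode gives pairs to neither gene, and the mode used is not given in the sources used here. That gene itself had 193 to 285 counts per library, against 231 to 380 for ALDOA.

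In lower glycolysis, from GAPDH to pyruvate kinase, 1 of 6 genes fell and 0 rose by edgeR, while the median log2 fold change was -0.26 and 4 of 6 had an unadjusted p under 0.05. DESeq2 called PGAM1, GAPDH and PKM lower and 0 higher. The called gene PGAM1, the phosphoglycerate mutase (chromosome 10, 97426160 to 97433441, plus strand), gave 538, 590 and 584 CPM in controls and 447, 433 and 485 CPM with VNLG-152R. The groups did not overlap, and the log2 fold change was -0.33 (SE 0.09, adjusted p = 0.0482). The call lay at the threshold and was lost with any of the 6 libraries left out (adjusted p = 0.0628 to 0.195). GAPDH, which makes NADH at the glyceraldehyde 3-phosphate step, gave 3961, 4311 and 4393 CPM in controls and 3777, 3047 and 3548 CPM with VNLG-152R. PKM, the pyruvate kinase gene whose splice forms gene counts do not separate, gave 4253, 4392 and 4631 CPM and 3918, 3195 and 3638 CPM. In both genes all treated libraries lay below all controls, with the lowest value in VNLG-152R replicate 2. Their log2 fold changes of -0.29 (adjusted p = 0.12) and -0.30 (adjusted p = 0.0969) did not pass, and without VNLG-152R replicate 1 both did (0.0499 and 0.0355). PGK1 (-0.23, adjusted p = 0.181) and ENO1 (-0.17, adjusted p = 0.352) overlapped between groups, and ENO2, the neuronal enolase, was at 0.02.

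Lactate is made from pyruvate by LDHA, which fell. LDHA (chromosome 11, 18394388 to 18408425, plus strand) was measured at 2602, 2632 and 2558 CPM in controls and 1917, 2108 and 2097 CPM with VNLG-152R. The lowest control stood well above the highest treated library. Its log2 fold change was -0.35 (SE 0.09, adjusted p = 0.0394), a 0.786-fold level, and the call stood without VNLG-152R replicate 2 but was lost when any other library was left out (adjusted p = 0.0516 to 0.148). SLC16A3, the lactate exporter MCT4, overlapped between groups at 891, 1149 and 1109 CPM and 1308, 1007 and 979 CPM (log2 fold change 0.06). SLC16A1, which encodes the other major carrier MCT1, had 0 counts in all 6 libraries, which allows at most 3 counts, or 0.0365 to 0.0499 CPM. LDHB, the subunit that favors lactate oxidation, was low at 2.53 to 4.21 CPM and at -0.30 (adjusted p = 0.319). Here 62.9% of its principal exons lie under a second annotated gene on the same strand, so this level may be incomplete.

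Short transcripts tended to read lower in the VNLG-152R libraries, with a Spearman rho of 0.197 between transcript length and log2 fold change over 16725 genes. A correction for length turned this to a weaker trend of the opposite sign (rho -0.061), and after it the falls of TPI1 (-0.26, adjusted p = 0.0894), PGAM1 (-0.27, 0.0807) and LDHA (-0.30, 0.0586) were no longer called. BNIP3 (adjusted p = 0.0103), ADM (0.0481), SLC2A3 (0.0193), ALDOC (0.00599) and BHLHE40 (0.000516) were, so that 3 members rose and 2 fell, beside 3.19% and 1.26% of all genes in that fit.

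**Figure D2:**
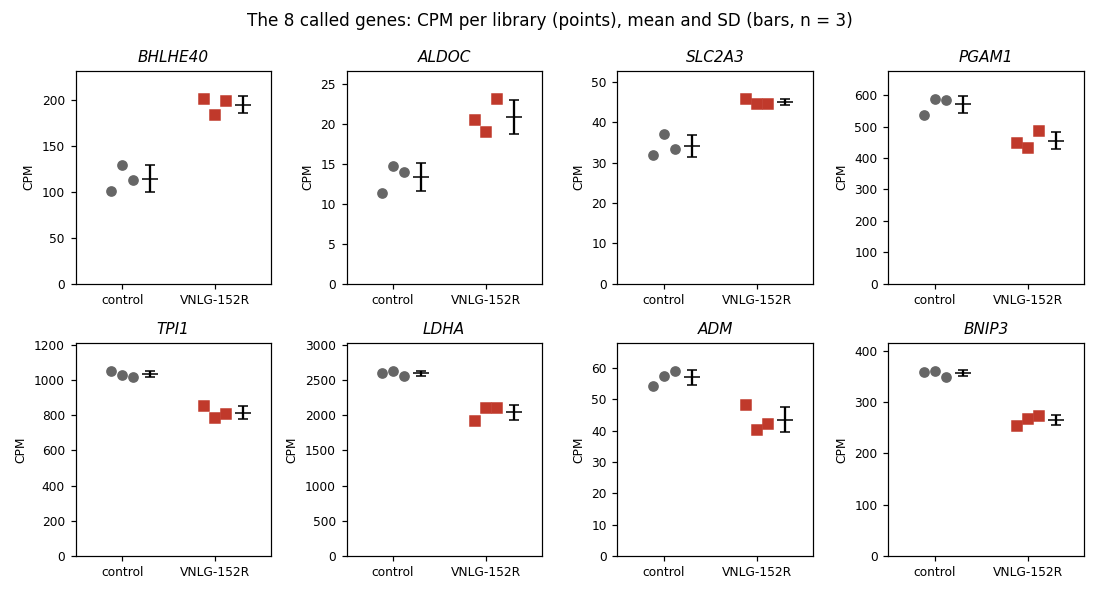
Each panel is a called gene, with CPM on a y axis from 0, the 3 libraries of each group as points, and the mean and SD (n = 3) as bars. BHLHE40, ALDOC and SLC2A3 were higher in every VNLG-152R library, and PGAM1, TPI1, LDHA, ADM and BNIP3 were lower in every one.

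At the entry of pyruvate into mitochondria, 0 of 3 members were called by edgeR and 1 by DESeq2, with 1 at an unadjusted p under 0.05. PDK3, a pyruvate dehydrogenase kinase, gave 19.0, 21.5 and 18.7 CPM in controls and 21.8, 26.2 and 26.3 CPM with VNLG-152R. The groups just failed to overlap, with the top control at 21.5 and the lowest treated library at 21.8 CPM. Its log2 fold change was 0.33 (SE 0.10, adjusted p = 0.0789 by edgeR and 0.0462 by DESeq2). PDK1, the kinase best known as a HIF target, overlapped at -0.14 (adjusted p = 0.395). PDHA1, the enzyme subunit these kinases phosphorylate, lay below the controls at -0.17 (adjusted p = 0.287), and 28.9% of its principal exons are opposite another gene.

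BNIP3 and BNIP3L are related outer-membrane receptors that mark mitochondria for autophagy, and they did not move alike. BNIP3 (chromosome 10, 131966455 to 131982013, minus strand) was at 359, 361 and 350 CPM in controls and 254, 267 and 274 CPM with VNLG-152R. The groups were far apart beside their spread, at 357 ± 6.20 against 265 ± 10.1 CPM (SD, n = 3). Its log2 fold change was -0.43 (SE 0.08, adjusted p = 0.00917), a 0.743-fold level, and the call was lost without control replicate 3 (adjusted p = 0.0551). BNIP3L gave 104, 98.1 and 92.6 CPM and 80.2, 96.8 and 104 CPM, which overlap, with a log2 fold change of -0.07 (SE 0.10, adjusted p = 0.72).

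The carbonic anhydrases and collagen hydroxylases, both common readouts of hypoxia, showed 0 of 4 calls by edgeR and by DESeq2. Also 0 had an unadjusted p under 0.05. Over all genes, 5.19% were called by edgeR, 10.1% by DESeq2, and 22.6% had such an unadjusted p. At these shares a count of 0 among 4 genes says little. CA9, the membrane carbonic anhydrase often used to mark hypoxic tumor, was scarce at 5.34, 6.99 and 5.71 CPM in controls and 5.51, 4.25 and 5.18 CPM with VNLG-152R. The groups overlapped, with a log2 fold change of -0.27 (SE 0.14, adjusted p = 0.277), and 39.7% of its principal exons are opposite another gene. CA12, a second membrane form, was at -0.01. P4HA1 and P4HA2 carry the catalytic subunit of collagen prolyl 4-hydroxylase. P4HA1 gave 188, 184 and 177 CPM and 164, 188 and 168 CPM (log2 fold change -0.08, SE 0.08, adjusted p = 0.627), and P4HA2 was also at -0.08. Neither separated the groups.

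Among the 7 other hypoxia-induced members, 1 rose and 1 fell. BHLHE40 (chromosome 3, 4979116 to 4985323, plus strand), a basic helix-loop-helix repressor also known as DEC1 that ties the circadian clock to hypoxia, was at 100, 129 and 113 CPM in controls and 201, 184 and 199 CPM with VNLG-152R. It had the largest log2 fold change of the 38, at 0.77 (SE 0.10, adjusted p = 0.000842), or 1.71-fold. It was called with each of the 6 libraries left out in turn, with the log2 fold change between 0.69 and 0.87. ADM, the precursor of adrenomedullin (chromosome 11, 10304680 to 10307397, plus strand), went from 54.4, 57.6 and 59.2 CPM to 48.1, 40.3 and 42.2 CPM. The groups did not overlap, and the log2 fold change was -0.39 (SE 0.09, adjusted p = 0.0294). Dropping control 2 (adjusted p = 0.0807), control 3 (0.14), or VNLG-152R library 2 (0.0818) or 3 (0.107) ended the call.

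ANKRD37, an ankyrin-repeat HIF target, had the most negative estimate of the members but low counts. It gave 5.46, 5.98 and 5.61 CPM in controls and 3.22, 4.64 and 4.13 CPM with VNLG-152R, without overlap. The log2 fold change was -0.50 (SE 0.14, adjusted p = 0.0614 by edgeR and 0.0194 by DESeq2), and 37.6% of its principal exons are opposite another gene. AK4, a mitochondrial adenylate kinase, lay below all controls at -0.20 (adjusted p = 0.181). The stress gene NDRG1 (-0.17, adjusted p = 0.459), the histone demethylase KDM3A (0.03, adjusted p = 0.872) and the glycoprotein hormone STC1 (0.27, adjusted p = 0.156) overlapped between groups.

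Per kilobase of transcript, control levels of the detected members spanned from 3132 CPM per kilobase for GAPDH to 3.72 for CA9, leaving out LDHB and ALDOA, whose counts are limited by overlapping genes. GAPDH, ENO1, PKM, LDHA and TPI1 headed the order, at 3132 ± 170, 2552 ± 238, 1629 ± 70.4, 1351 ± 19.3 and 839 ± 14.6 CPM per kilobase (SD, n = 3), each above the next in every control. SLC16A3 (512), PGAM1 (312) and PFKP (240) followed. The order was then no longer resolved in several places: PGK1 (144) and SLC2A1 (140) were not separate in every control, nor were BNIP3, GPI, HK1, ENO2 and NDRG1 from one neighbor to the next, between 125 and 98.2. At the low end stood CA12 (6.74), ANKRD37 (4.98) and CA9 (3.72). LDHB (2.59) and ALDOA (2.53) were listed lower still, but with 62.9% and 68.3% of their principal exons under another gene they cannot be placed in this order.

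The summed counts of the 39 genes made up 2.25%, 2.43% and 2.44% of all gene counts in the controls and 2.11%, 1.98% and 2.08% in the treated libraries. The groups did not overlap. The 5 members most abundant per kilobase, named after their values were seen, took 1.61%, 1.70% and 1.73% in the controls and 1.43%, 1.33% and 1.43% in the treated libraries. In bulk RNA, fewer cells with a transcript and less of it per cell cannot be told apart.

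**Figure D3:**
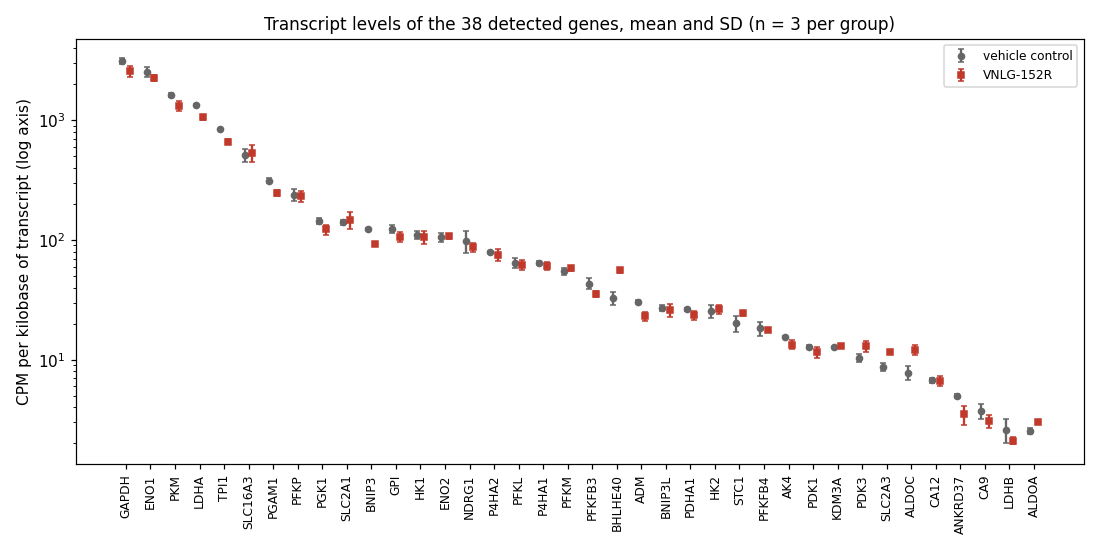
The y axis (log scale) gives CPM per kilobase of transcript for the 38 detected genes, ordered by their control level, as mean and SD of 3 libraries (grey, controls; red, VNLG-152R). Control levels spanned from 3132 for GAPDH to 3.72 for CA9, followed by LDHB and ALDOA, whose values are limited by overlapping genes and do not give their place, and the red mean lies clearly below the grey for LDHA, TPI1, BNIP3 and ADM and above it for BHLHE40 and ALDOC.

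Shares within families of related members, per transcript length, showed where sister genes differed within a library. PDK3 made up 44.5% ± 1.21 (SD, n = 3) of the PDK1 and PDK3 total in controls and 52.7% ± 0.67 with VNLG-152R. Which of this pair was larger depends on the division by length. In CPM, PDK1 stayed above PDK3 in every library, with means of 38.2 against 19.7 in controls and 34.6 against 24.8 with VNLG-152R. Neither gene was called by edgeR, and PDK2 and PDK4 are not in this total. BNIP3L went from 17.9% ± 0.68 to 21.8% ± 1.59 of its pair, SLC2A3 from 5.84% ± 0.19 to 7.31% ± 0.93, PFKFB4 from 29.6% ± 0.88 to 33.2% ± 0.62, and ENO2 from 3.98% ± 0.09 to 4.50% ± 0.14. The groups did not overlap in these 5 families, and an exact permutation test of 3 against 3 libraries cannot give a two-sided p under 0.1. Among single tested genes, 15.1% lay wholly above the controls and 13.4% wholly below, and no such share was computed for other gene pairs. The shares of SLC2A3 and BNIP3L in part restate the called rise of SLC2A3 and fall of BNIP3. In the other families plotted the libraries overlapped: HK2 was 18.8% ± 0.68 and 19.9% ± 1.16 of the hexokinases, PFKM 15.3% ± 0.66 and 16.5% ± 0.76 of the phosphofructokinases, and P4HA1 44.7% ± 0.78 and 44.9% ± 4.08 of the collagen hydroxylases.

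**Figure D4:**
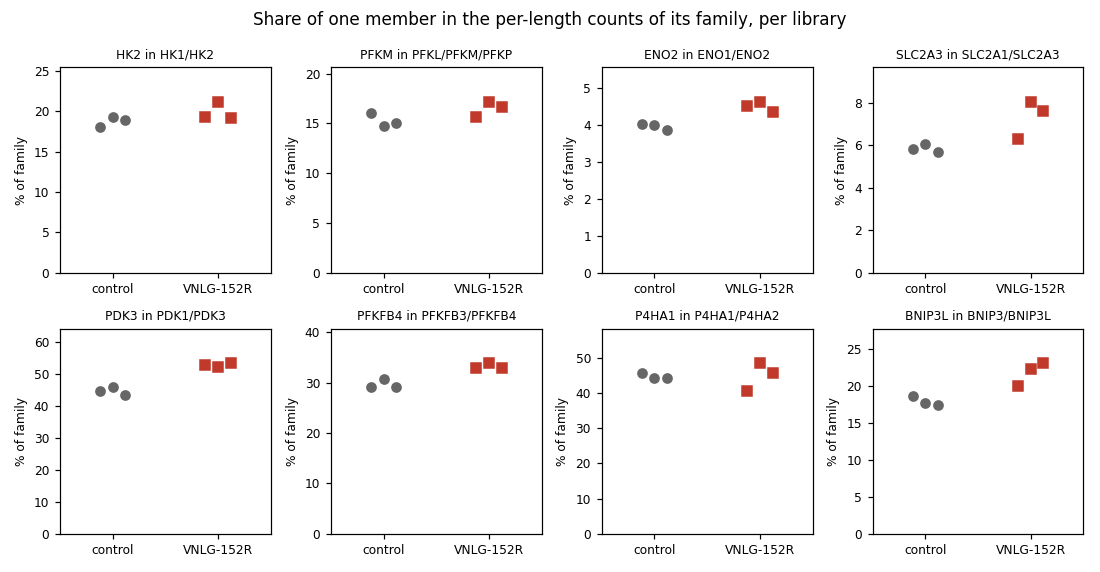
Each panel gives, on a y axis from 0, the percent that 1 member makes up of the per-length counts of its family in each of the 3 control libraries (grey) and the 3 VNLG-152R libraries (red). The groups separate for ENO2, SLC2A3, PDK3, PFKFB4 and BNIP3L, and overlap for HK2, PFKM and P4HA1.

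Other genes of these pathways were read from the same fit. Among 32 isoforms and relatives that are not members, 17 were expressed enough to test, 3 rose and 0 fell (DESeq2, 4 and 0). SLC2A12, the carrier GLUT12, rose from 2.42, 3.77 and 3.29 CPM to 8.24, 8.89 and 8.80 CPM (log2 fold change 1.45, SE 0.15, adjusted p = 0.000123), and 38.9% of its principal exons are opposite another gene. SLC2A5, the fructose carrier GLUT5, was barely detected, with 4, 11 and 9 counts in the control libraries and 50, 46 and 39 in the treated ones (log2 fold change 2.23, SE 0.36, adjusted p = 0.00477). PFKFB2 rose by 0.47 (SE 0.09, adjusted p = 0.0148), a call lost without control replicate 1 (0.0502) or VNLG-152R replicate 3 (0.0515).

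Of 11 tested genes of pyruvate oxidation, 2 rose and 0 fell by edgeR and by DESeq2, and no further gene had an unadjusted p under 0.05. Both that rose encode phosphatases that reactivate pyruvate dehydrogenase and so counter the kinases PDK1 and PDK3. PDP1 rose from 62.4, 69.4 and 62.4 CPM to 89.3, 98.7 and 96.9 CPM (log2 fold change 0.55, SE 0.08, adjusted p = 0.00291) and was called with any library left out. PDP2 rose by 0.39 (SE 0.08, adjusted p = 0.0204), and this call was lost with either control 2 (0.0853), control 3 (0.122) or the third VNLG-152R library (0.0723) left out, and after the length correction (0.0963).

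The TCA cycle showed 0 calls among 17 genes by edgeR, with 2 at an unadjusted p under 0.05 and 1, the fumarase gene FH (log2 fold change -0.25), by DESeq2. Its median was -0.13 and 16 of 17 estimates were negative, beside 8603 of the 17084 genes tested. All 3 VNLG-152R libraries lay below all 3 controls for 6 of the 17 (35.3%) and above them for 0. The share below was 31.6% of members and 13.4% of all tested genes. Over all genes, 5.19% were called by edgeR and 10.1% by DESeq2. In the pentose phosphate pathway, the reticulum enzyme H6PD rose by 0.47 (SE 0.10, adjusted p = 0.017) and was the 1 call among 9 genes, which was lost when control 1 (0.0614), control 3 (0.0907) or the third VNLG-152R library (0.0545) was dropped. Glycogen metabolism had 0 calls among 13 genes by edgeR and by DESeq2, with 2 at an unadjusted p under 0.05.

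Further targets of HIF also split. Of 32 tested, 2 rose and 2 fell (DESeq2, 4 and 5), with a median of -0.03. VEGFA, the angiogenic growth factor, rose from 436, 465 and 468 CPM to 779, 754 and 644 CPM (log2 fold change 0.67, SE 0.09, adjusted p = 0.00157). EGLN3, an oxygen-sensing prolyl hydroxylase and itself a HIF target, fell from 40.3, 39.7 and 40.7 CPM to 25.4, 25.9 and 27.6 CPM (-0.61, SE 0.08, adjusted p = 0.000859). Neither pair of groups overlapped, and both calls stood with each library left out in turn. ANGPTL4, a lipase inhibitor, fell (-0.66, adjusted p = 0.0204), and dropping control 1 (0.0711), control 3 (0.0858) or the third VNLG-152R library (0.081) ended the call. Among 9 tested genes of HIF itself and oxygen sensing, EGLN3 was the 1 call, and HIF1A was at 0.06 (adjusted p = 0.711).

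**Figure D5:**
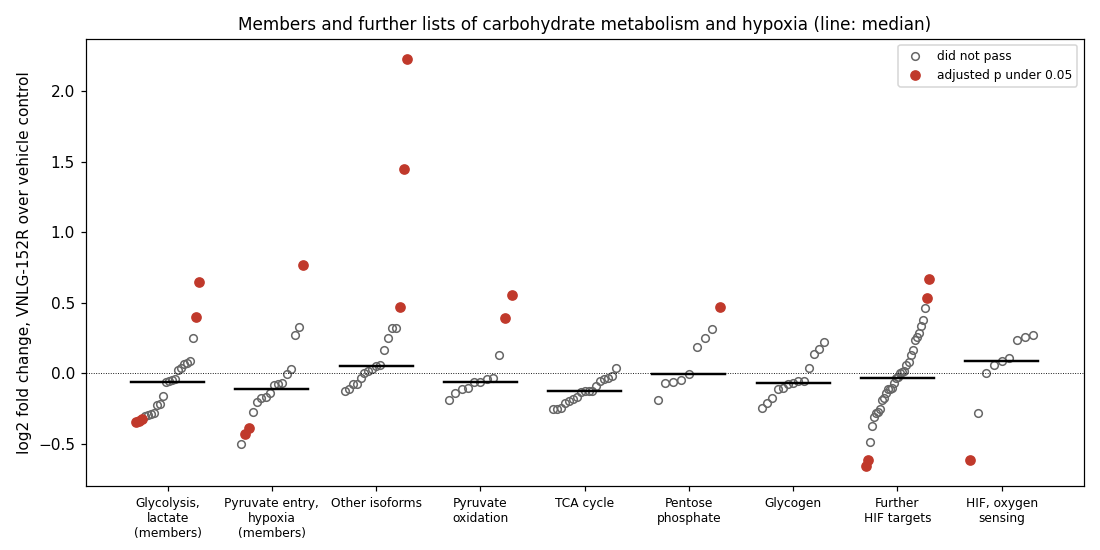
Each point is a tested gene, placed by its log2 fold change (y axis, VNLG-152R over vehicle control) within its list (x axis), with called genes filled red and the median as a bar. List medians lie between -0.13 for the TCA cycle and 0.09 for HIF and oxygen sensing, and called genes stand on both sides of 0 in both member columns and in the further HIF targets.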

How the data were processed

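The authors sequenced paired-end, strand-specific libraries of polyA RNA from 3 vehicle control and 3 VNLG-152R samples, and deposited 1 table of raw counts by Ensembl gene per sample. The submitters' processing notes name HISAT, HTSeq, DESeq and GRCh38, with the annotation release, strand setting and overlap mode not given in the sources used here. Classes of unassigned pairs were left out: outside genes (2.63% to 3.17% in controls, 3.36% to 5.05% with VNLG-152R), ambiguous (4.81% to 5.16%) and not unique (7.81% to 8.12%). At 60122936 to 82151816 gene counts per library, counting error is small for abundant genes, whose precision rests on the spread between libraries. It is larger for genes with few counts, such as ANKRD37 (218 to 382 per library) and SLC2A5.

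Groups were compared in R 4.3.3 with edgeR 4.0.16 (TMM, filterByExpr, quasi-likelihood test) over 17084 genes, with Benjamini-Hochberg adjustment over all of them and a threshold of 0.05. The biological coefficient of variation was 0.105 with 4 residual degrees of freedom. CPM values are TMM-normalized. Coordinates, lengths (median of principal transcripts) and exon overlaps came from GENCODE 29 on GRCh38. The script was tested on simulated data. Every fit was repeated with scaling by RLE or by library size, with no filter or a minimum mean of 1 CPM, with DESeq2 1.42.0 or limma-voom (limma 3.58.1) in place of edgeR, with a replicate block, with a correction for transcript length, and leaving out each library.

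The members and lists were chosen with earlier results of these data known. All members are named. Full values are given for called members, for the member with the smallest p in each role, for PFKFB3, GAPDH, PKM and ANKRD37, which DESeq2 called, and for SLC2A1, SLC16A3, BNIP3L and ALDOA for contrast, and up to 4 called genes per direction are named from each further list. FH and HIF1A are named beyond this. A few listed genes that are not members are not reported here by name. The labels do not say whether replicates are separate cultures, so p-values measure the spread between these libraries, which may be technical.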

Additional observations from a re-analysis of the deposited data

Results flagged for a closer look

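The share of read pairs that fell in no annotated gene lies outside the gene comparisons, and it was higher in every VNLG-152R library than in any control. The lowest VNLG-152R library stood at 3.36% and the highest control at 3.17%.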

How the results depend on the processing

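The count of members that fell was 5 and became 9 with DESeq2, 2 with the length correction and 0 to 5 with 1 library left out: 0 without control 3, 1 without control 2 or VNLG-152R library 3, 2 without control 1, 3 without VNLG-152R library 2 and 5 without VNLG-152R library 1. Over all genes, 0.251% fell without control 3, 0.805% without control 2 and 0.407% without VNLG-152R library 3. That share was 0.595% without control 1, 0.82% without VNLG-152R library 2 and 1.98% without VNLG-152R library 1. The count of members that rose stayed between 2 and 4, and their median log2 fold change between -0.15 and -0.07, over all alternatives. RLE size factors, library size only, a mean of at least 1 CPM and limma-voom called the same 8 members, and without an expression filter PDK3 and ANKRD37 joined them. The length correction turned the signs of HK2 (-0.036) and KDM3A (-0.021). Leaving out 1 library turned the sign of 10 uncalled members, whose log2 fold changes ranged from -0.062 to 0.16 for SLC2A1, -0.15 to 0.025 for HK1, -0.059 to 0.11 for HK2, -0.14 to 0.024 for PFKP, -0.15 to 0.034 for PFKFB4, -0.045 to 0.064 for ENO2, -0.077 to 0.14 for SLC16A3, -0.15 to 0.032 for BNIP3L, -0.089 to 0.045 for CA12 and -0.010 to 0.048 for KDM3A. Further HIF targets had 2 called higher and 2 lower by edgeR and 4 and 5 by DESeq2, and the pentose phosphate list 1 and 2 higher. The cause of these changes was not tested. The fits with a library left out also rest on fewer libraries, and the part of this was not tested either.

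The labels do not say whether replicate numbers pair the samples. The deviations of same-numbered control and VNLG-152R libraries correlated at -0.192, -0.173 and -0.114, and those of different-numbered ones at 0.012 to 0.147. Deviations from the mean of 3 libraries are tied to each other, so these values do not decide whether samples were paired. With the replicate number as a block, 397 genes were called in place of 887, and 2 members rose (BHLHE40, adjusted p = 0.00236, and ALDOC, 0.0135) while 0 fell, with 9 lower at an unadjusted p under 0.05.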

Other observations

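Processed and unprocessed copies of the members' genes could take reads from them. The 65 annotated pseudogenes of GAPDH together held 0.29% to 0.44% of its counts, the 44 of BNIP3 0.44% to 0.62%, the 13 of PGAM1 0.18% to 0.37% and the 6 of LDHA 0.05% to 0.08%. TPI1 had 1.95% to 2.30% in 4 copies. AK4 had the largest such share among members above 10 CPM, at 6.35% to 8.84% in 6 copies. Pairs that aligned to more than 1 place were not counted to any gene.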
